A study of Daphnia magna with 20 samples.

Results

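Adult males (M) of the water flea *Daphnia magna* were compared with juveniles (J) on Agilent arrays of 1 colour, on which the brightness of a spot stands for the amount of a transcript. The comparison used 5 of the 20 arrays of a life-cycle series, 2 of males (M1 and M2) and 3 of juveniles (J1, J2 and J3), assigned to their stage by the sample labels. The other 15 arrays held early embryos (E1), late embryos (E3) and adult females at the beginning (F1), in the middle (F2) and at the end (F3) of the intermoult cycle, with 3 arrays a stage. The labels give embryos of 12 h and 60 h and females of 15, 16 and 18 days, in this order. RNA was taken from whole animals of 1 laboratory clone, which received no treatment at sampling. Juveniles were labelled female and 4 days old, and the study's methods describe them as pre-adult animals in which no ovary can be seen. Males were labelled 16 days old, while the methods give a younger age, and they were born to parthenogenetic females exposed to the hormone methyl farnesoate. Males and juveniles thus differed in sex, in age and maturity and in the exposure of their mothers, and these cannot be told apart in this comparison. The study calls the arrays of a stage biological replicates without saying whether they came from separate cultures, and the p-values measure the spread between these arrays.

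*Daphnia* reproduces by cyclic parthenogenesis. Sex is set by the environment and not by sex chromosomes, and methyl farnesoate, a crustacean hormone of the juvenile hormone family, makes mothers produce sons that carry the same genome as their sisters. Males remain smaller than females, carry long first antennae and form testes in place of ovaries and a brood pouch. The gene doublesex directs male traits in this species.

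The arrays carried 162718 probes for 41316 gene models, usually 4 a gene model, and 2532 probes of random sequence that measure background. The files identify gene models by the identifiers of a transcript assembly and do not pair them with names, and 0 of these identifiers were found in the RefSeq gene table of this species. Doublesex, yolk proteins, cuticle proteins and other genes of known role could therefore not be looked up, and the labelled sex and stage were not checked against marker genes. Gene models are described below by their signals, and 2 that were higher and 2 that were lower in males are named by identifier.

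The arrays lay on 5 slides scanned on 3 dates. Array M1 lay on slide 1, the slide of the first date, which held no array of juveniles. Arrays M2, J1 and J3 shared slide 2, and J2 lay on slide 3. The scanning software marked 17.1% of probes as well above background on M1, against 52.7% on M2, 55.3% on J1, 48.7% on J2 and 52.8% on J3. The lowest processed signal was 36 units on M1 and between 3.49 and 4 units on the other 4 arrays. After quantile normalization the dimmest probe that was well above background had a log2 signal of 8.1 on M1, 4.51 on M2 and 4.29 to 4.83 on the juvenile arrays, so that dim probes were measured in males on M2 alone. The other 3 arrays of slide 1 also had low shares of probes well above background, from 17.1 to 25%.

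The replicate arrays of males differed more than those of juveniles. Over the 76235 probes tested, the SD of the log2 difference between M1 and M2 was 1.65, and that between pairs of juvenile arrays was 0.46 to 0.51. Pearson's r across these probes was 0.866 between the male arrays and 0.981 to 0.985 between juvenile arrays. Each male array correlated less with the juvenile arrays than those did among themselves, with r of 0.853 to 0.877 for M2 and 0.771 to 0.793 for M1. Probes of an array are not independent replicates, and these values are given as a description. When probes were ranked by their mean level over all 20 arrays and split into 5 equal parts, the SD between M1 and M2 fell from 1.86 in the dimmest part to 0.86 in the brightest. The SD between juvenile arrays was 0.40 to 0.56 in every part. The median of M1 minus the juvenile mean was -1.44 in the dimmest part and -0.21 in the brightest, while that of M2 lay between -0.28 and -0.08 throughout.

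**Figure D1:**
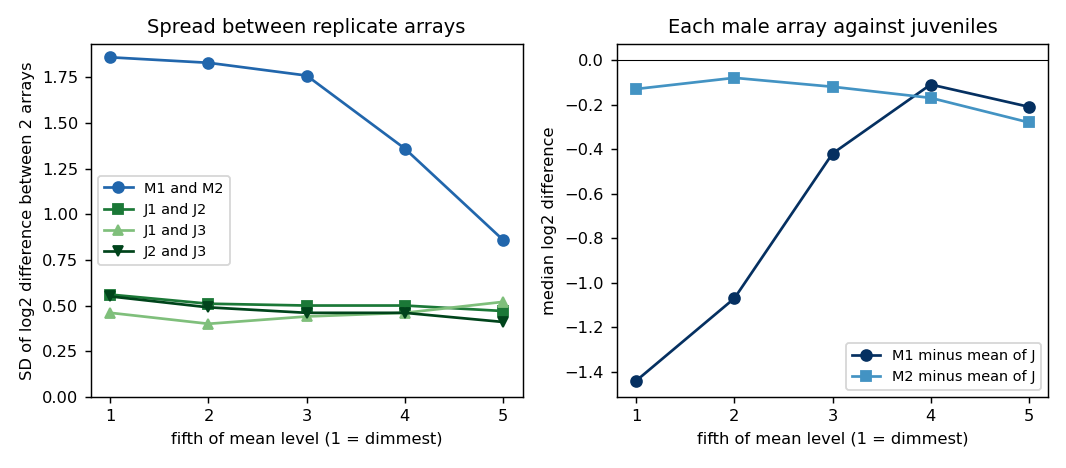
Left, SD of the log2 difference between 2 arrays of the same stage for M1 and M2 and for each pair of juvenile arrays. Right, median log2 difference of each male array from the mean of the 3 juvenile arrays. Both are shown for 5 equal parts of the 76235 tested probes, ordered from the dimmest (1) to the brightest (5) by mean level over 20 arrays. The male pair lies above every juvenile pair in each part, and M1 approaches M2 only among the brighter probes.

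Many probes differed between males and juveniles, and more of them were lower in males than higher. A probe was tested when it exceeded the background of the random probes on every array of at least 1 of the 7 stages, and was called when the adjusted p was under 0.05 and the difference at least 1.5-fold (limma, Benjamini-Hochberg over all tested probes). Of 76235 tested probes, 19607 (25.7%) were called, 6850 (8.99%) higher and 12757 (16.7%) lower in males. The called probes that were higher in males made up 34.9% of all calls. The filter treats the stages unequally, since the background was 7.18 on M1, 5.33 on M2 and 5.39 to 5.56 on the juvenile arrays. A probe bright in juveniles alone was thus tested from a lower level than one bright in males alone. With no such filter 40.8% of the calls were higher, and a fit of the 5 arrays alone called 5849 higher and 5948 lower. How far the filter sets the balance was not tested. Of the 137 random probes that passed the same filter, 28 (20.4%) met the same limits, 12 (8.76%) higher and 16 (11.7%) lower in males. A share of calls close to that of the gene model probes was thus also found among probes designed to match no transcript. The median of males minus juveniles over all tested probes was -0.40 log2 units after quantile normalization, -0.13 with a shift of each array to its 75th percentile and -0.29 with the normexp background correction.

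**Figure D2:**
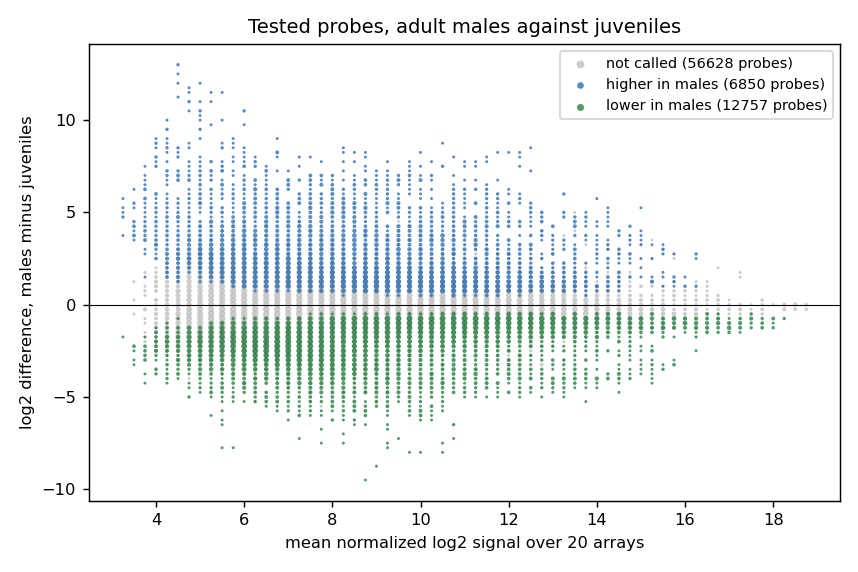
Log2 difference of males minus juveniles against the mean normalized log2 signal over 20 arrays, for 76235 tested probes gathered in bins of equal width, with larger points for bins of more probes. Blue bins hold the 6850 probes called higher in males, green bins the 12757 called lower and grey bins the rest. Differences reach 13.06 on the side of males and -9.61 on the side of juveniles.

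The differences higher in males were the larger ones. The median difference was 2.01 log2 units among the 6850 probes higher in males and -1.74 among the 12757 lower ones. These medians moved to 1.95 and -1.54 when a probe that no array of the dimmer stage measured was counted at its lower bound. The bound left as they were the M1 signals of the 7464 lower probes that were well above background on M2 only. A difference of at least 16-fold was found for 1168 probes higher and 677 lower in males, and one of at least 8 log2 units for 78 and 4.

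The balance between the directions was not the same among probes measured on all 5 arrays. Asking for signal on M1, with its high floor, leaves out probes because they are low in males, so the counts and sizes in these groups are limited by the choice of probes on the lower side. Among the 39908 probes above the background of the random probes on all 5 arrays, 11919 (29.9%) were called, 5513 (13.8%) higher and 6406 (16.1%) lower in males. Among the 27462 tested probes that were well above background on all 5 arrays, 4519 (16.5%) were higher in males and 4085 (14.9%) were lower. In this group the median differences were 1.75 and -1.08 log2 units, and 1874 higher and 505 lower probes differed by at least 4-fold. Of the 12757 probes called lower, 4086 were well above background on both male arrays, 7464 (58.5%) on M2 only and 1207 on neither. Of the 6850 probes called higher, 5058 were well above background on both male arrays and 1775 (25.9%) on M2 only. Juveniles measured most of both groups, since 5396 of the higher and 12633 of the lower probes were well above background on all 3 juvenile arrays.

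Calls were more frequent among brighter probes. The share called higher in males was 6.32% in the dimmest and 10.8% in the brightest of the 5 parts, with its highest value, 13%, in the part below the brightest. The share called lower rose from 7.79 to 23.4% between the dimmest and the brightest part. Lower calls outnumbered higher ones in each of the 5 parts.

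**Figure D3:**
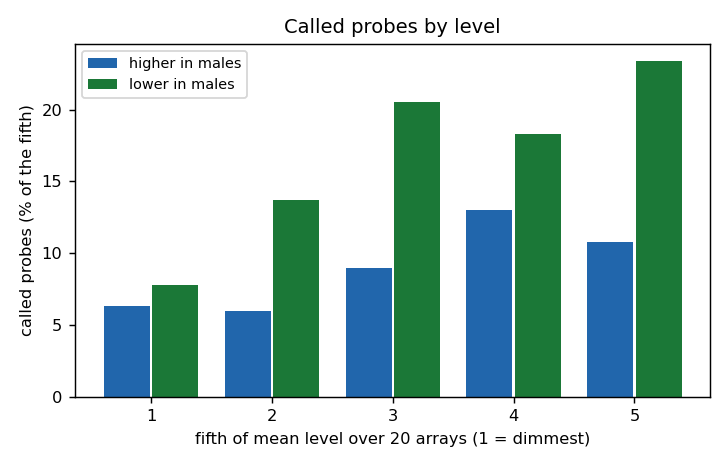
Share of tested probes called higher (blue) or lower (green) in males, in percent of the probes in each of 5 equal parts ordered by mean level over 20 arrays. Lower calls were the more frequent in every part, from 7.79% in part 1 to 23.4% in part 5.

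Each male array was set against the juvenile arrays for the called probes. Both male arrays lay above all 3 juvenile arrays for 6831 (99.7%) of the probes called higher and below them for 12634 (99.1%) of those called lower. These shares follow largely from the calls, which were made on the same arrays, and are no separate check of the male arrays. Over all tested probes, called or not, both male arrays lay above the juvenile arrays for 16388 (21.5%) and below them for 29054 (38.1%). The median difference from the juvenile mean was 2.16 on M1 and 1.80 on M2 for the higher probes. For the lower probes it was -2.07 on M1 and -1.22 on M2, so the male arrays were further apart on that side. Without M1 the number of called probes was 10174 in place of 19607, and 3495 (51%) of the higher and 5504 (43.1%) of the lower calls were kept. Without M2, 5527 (80.7%) and 10258 (80.4%) were kept among 25885 calls. A lone male array was assumed in both cases to vary like the other stages. Within slide 2, which holds M2, J1 and J3 of the same comparison, the difference had the opposite sign for 1 of the higher and 11 of the lower probes, given as a description.

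At the level of gene models, 10318 of the 28459 with a tested probe (36.3%) had at least 1 called probe. The called probes were all higher in males in 3633 (12.8%), all lower in 6606 (23.2%) and in both directions in 79 (0.278%). Without M1, 5301 gene models were called. Probes of 1 gene model often differed in their call. Of the 10339 gene models with 4 tested probes, 5030 were called, and all 4 probes passed in 1351 of these, 3 in 961, 2 in 1062 and only 1 in 1656. Among the 1351, all probes were higher in males in 462, all were lower in 874, and 15 had probes called in opposite directions. Identifiers of the transcript assembly that differ only in their last number formed 1493 groups with at least 2 tested gene models. In 324 of these groups at least 2 gene models were called in 1 direction each. All were higher in males in 103 groups and all lower in 155, and 66 groups held gene models of opposite direction.

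A stricter set of gene models required at least 3 tested probes, all called in the same direction, with both male arrays beyond all 3 juvenile arrays for each of them. Of 16078 gene models with at least 3 tested probes, 679 were higher and 1196 lower in males by this rule. The median difference was 3.08 log2 units in the higher set and -1.62 in the lower, or 2.95 and -1.51 with unmeasured signals at their bound, and the probes of a gene model scattered around their mean with a median SD of 0.24 and 0.27. All probes were well above background on all 5 arrays, which limits the lower set as above, for 347 gene models of the higher and 386 of the lower set. In these the median was 2.04 (4.12-fold), with a range of 0.73 to 8.23, and -1.15 (2.21-fold lower), with a range of -0.59 to -4.77. No probe was well above background on M1 for 17 of the 679 higher gene models and for 424 of the 1196 lower ones. M1 and M2 differed by more than 2 log2 units in 27 gene models (3.98%) of the higher set and in 162 (13.5%) of the lower.

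The 20 gene models furthest above the juveniles were bright on both male arrays. Their difference ranged from 8.00 to 13.01 log2 units. The mean signal of their probes had a median of 13.69 on M1 and 13.00 on M2, with a lowest value of 11.13, against a median of 4.11 and a highest value of 7.45 for the juvenile mean. The separation of males from juveniles in these gene models follows from how they were chosen. The male arrays differed by 0.82 in the median and by at most 1.39. In 7 of the 20, no probe was well above background on any juvenile array. Males had the highest mean of the 7 stages for 19 of them, a count raised by this choice.

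The gene model with the largest rise was velh8ptr216k23Loc205t1. The median of its 3 tested probes was 16.26 on M1 and 15.96 on M2, and 2.94, 4.10 and 2.97 on J1, J2 and J3. The male arrays were close to each other and far above every juvenile array. None of the 3 probes was well above background on a juvenile array, so the fold changes are lower bounds, at least 3150-fold, 2600-fold and 3250-fold higher in males. The fitted differences, which take the juvenile signals below that limit at their printed values, were 13.06 ± 0.69, 11.93 ± 0.63 and 13.01 ± 0.53 log2 units (SE), with adjusted p from 3.07e-09 to 1.37e-08. The other stages were as low as the juveniles, with stage means between 3.06 and 3.47, and 1 of its probes on 1 array of early embryos was the only signal well above background outside males. The remaining probe of this gene model was not tested, and it was not well above background on the male arrays either.

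The gene model velb9ptf225k23Loc41t7 showed the largest rise among those measured on all 5 arrays. The median of its 4 probes was 14.29 on M1 and 13.14 on M2, and 5.20, 5.58 and 5.34 on J1, J2 and J3. The juvenile arrays were close to each other, and both male arrays were far above them. Its probes were 8.07 to 8.55 log2 units higher in males, or 268-fold to 376-fold, with adjusted p from 3.45e-09 to 4.48e-05. Although the software marked all 4 as well above background, only 2 exceeded the background of the random probes on all 5 arrays, with a difference of 8.2. The probes with the 376-fold and the 279-fold rise were below that background on all 3 juvenile arrays, so their folds rest on signals near the floor. Within slide 2 the probes differed by 7.55 to 8.13. Females were close to juveniles at this gene model, with stage means of 5.00, 6.07 and 5.87 in F1, F2 and F3, and late embryos had a mean of 6.10.

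On the lower side the sizes of the 20 largest fitted differences, from -5.02 to -8.00 log2 units, were set in part by signals that M1 did not measure. The mean signal of these gene models had a median of 12.06 in juveniles, 4.33 on M1 and 7.93 on M2. No probe of any of the 20 was well above background on M1, and with M1 placed at the lowest signal it measured the differences were -2.71 to -5.56, with a median of -3.61. Only 5 of the 20 were then still among the 20 largest. The male arrays differed by 3.28 log2 units in the median and by more than 2 in 15 of the 20, with a largest gap of 7.78. Males had the lowest mean of the 7 stages for 6 of them, a count raised by how they were chosen.

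The gene model named by the rule was velh8ptr090k77Loc67t4, the first of the 20 by fitted difference and the second with M1 at its limit. The median of its 4 probes was 2.90 on M1 and 9.54 on M2, and 13.99, 13.48 and 15.08 on J1, J2 and J3. Both male arrays were below the juveniles, but they were also far from each other, and only M2 was well above background. The fitted differences were -7.46 to -8.11 with SE from 1.36 to 1.64 and adjusted p from 0.000929 to 0.00235, and the median difference was -5.36 with M1 at its limit. Without M1 the difference was -4.51 and 3 of the 4 probes were called, with a largest adjusted p of 0.0572. Without M2 the fitted value was -11.37, which rests on M1 signals that were not well above background. Within slide 2 it was -4.78 to -5.14. The level also varied widely among females, with stage means of 13.35 ± 2.18 in F1, 11.59 ± 0.93 in F2 and 6.08 ± 0.53 in F3 (SD, n = 3). All F3 arrays were below M2, while the F1 arrays, from 10.87 to 14.95, overlapped with the juveniles.

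The gene model velh8ptr075k87Loc34t5 showed the largest fall from juveniles to males among those measured on all 5 arrays. The median of its 4 probes was 10.21 on M1 and 9.25 on M2, and 14.73, 14.37 and 14.46 on J1, J2 and J3. Here both male arrays were lower than the juveniles by a similar amount. The differences of its probes were -4.85 to -4.09 log2 units, or 17-fold to 28.8-fold lower in males, with adjusted p from 0.00534 to 0.0142. Without M1 the difference was -5.27, with 3 of 4 probes called and a largest adjusted p of 0.0532, and without M2 it was -4.21, with 2 of 4 called and a largest adjusted p of 0.066. The 9 female arrays, from 15.11 to 15.78, all lay above the juvenile arrays. Late embryos were lower still, at 7.53, 2.93 and 7.96, of which the second array lay on slide 1 and had no probe well above background. Early embryos were at 12.37, 8.81 and 12.78. The value of 8.81, below both male arrays, came from an array of slide 1 on which some of the probes were not well above background. The other early embryo arrays lay above both male arrays. The juvenile and female arrays were above all arrays of males and of both embryo stages.

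**Figure D4:**
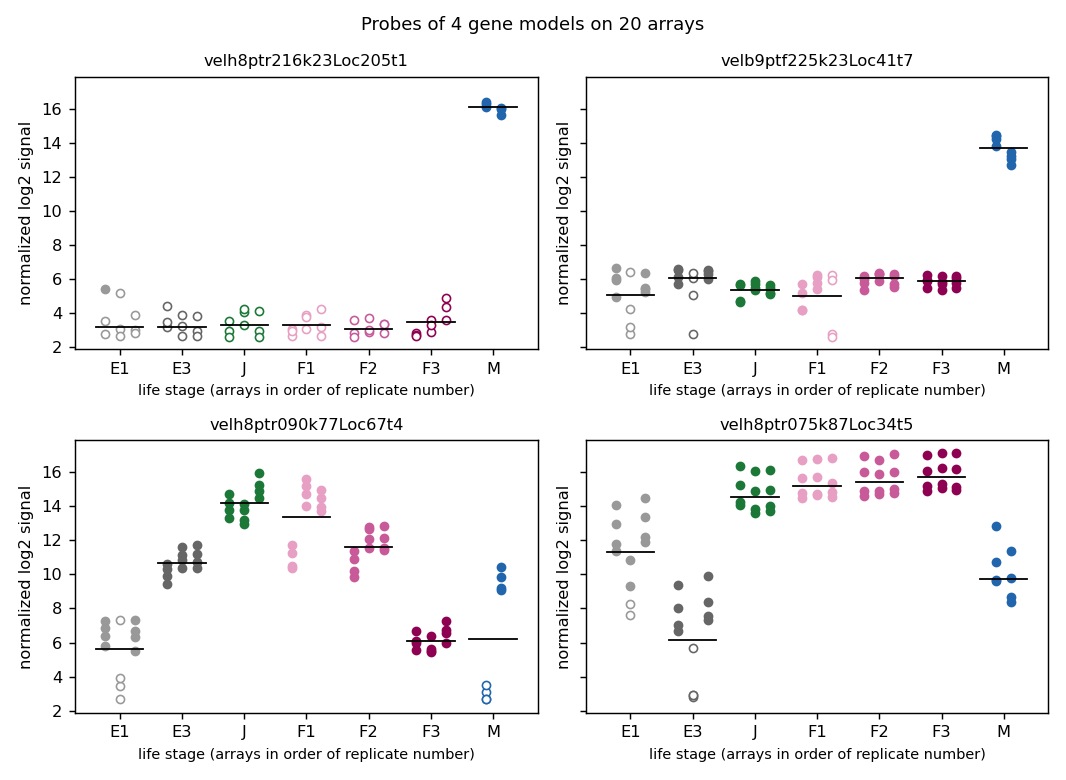
Normalized log2 signal of each tested probe of 4 gene models on the 20 arrays, by life stage and replicate number, with a line at the mean over arrays of the median over probes. Filled points are well above background and open points are not. The top 2 gene models are high only on the male arrays, with stage means of 16.11 and 13.72, and the bottom left one shows M1 at 2.90 with open points and M2 at 9.54 with filled points.

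The software's own mark of signal above background does not depend on the normalization, and was read for all 162718 probes. There were 225 probes of 137 gene models well above background on both male arrays and on no juvenile array, and 4286 probes of 3371 gene models on all juvenile arrays and on no male array. These counts followed the male array. With M2 alone the counts were 5619 and 4299, with M1 alone 285 and 48658, and within slide 2, where M2 was set against J1 and J3, 5952 and 7065. Without J1 the 225 became 384, and without J2 the 4286 became 7049. Of the 225 probes found in males and not in juveniles, 35 were on no female array, 37 were on all 3 arrays of late embryos and 24 were on no array of any other stage. Of the 5619 found with M2 alone, 528 were on no female array and 356 on no array of another stage. Of the 4286 lost in males, 412 were well above background on all 9 female arrays and 48 on no female array. Array 3 of F1 and array 2 of late embryos lay on slide 1, with 25% and 21.8% of probes well above background. This limits the counts that ask for all arrays of females or of late embryos. The same counts over all 162718 probes are not set beside these, so they do not show a trait particular to these probes.

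The other stages were then examined for the gene models of the stricter set. For each probe the median over 20 arrays was subtracted, and the median over the probes was taken for each array. These values are given without a test. For the 2497 probes of the higher set it was 1.66 on M1 and 1.34 on M2, and -0.97 to -0.70 on the juvenile arrays. Among the stages that the comparison did not use, early embryos were the lowest, at -1.70 to -1.29, and F1 females followed at -0.62 to -0.47. F2 and F3 females were at 0.13 to 0.23 and at 0.06 to 0.52, and late embryos at 0.29 to 0.68. The higher set was thus above the probes' own median in late embryos and in females of the middle and end of the cycle, and no array of these reached the male arrays. Over all tested probes late embryos were at -0.26 to 0.01, F2 females at -0.01 and F3 females at 0.03 to 0.09. Early embryos were at -0.20 to 0.13 there and F1 females at -0.08 to 0.04. The arrays that chose the set also enter each probe's median.

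For the 4454 probes of the lower set the value was -1.38 on M1, -1.21 on M2 and 0.11 to 0.14 on the juvenile arrays. Females were close to juveniles here, from -0.07 to 0.28 over their 9 arrays, and early embryos were at 0.39 to 0.52. Over all tested probes females were at -0.08 to 0.09 and juveniles at 0 to 0.01, so this closeness is not particular to the lower set. Late embryos stood apart from the other non-male stages, at -0.80 to -0.68. The spread within the set was wide, with quartiles of -2.78 and -0.76 on M1.

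**Figure D5:**
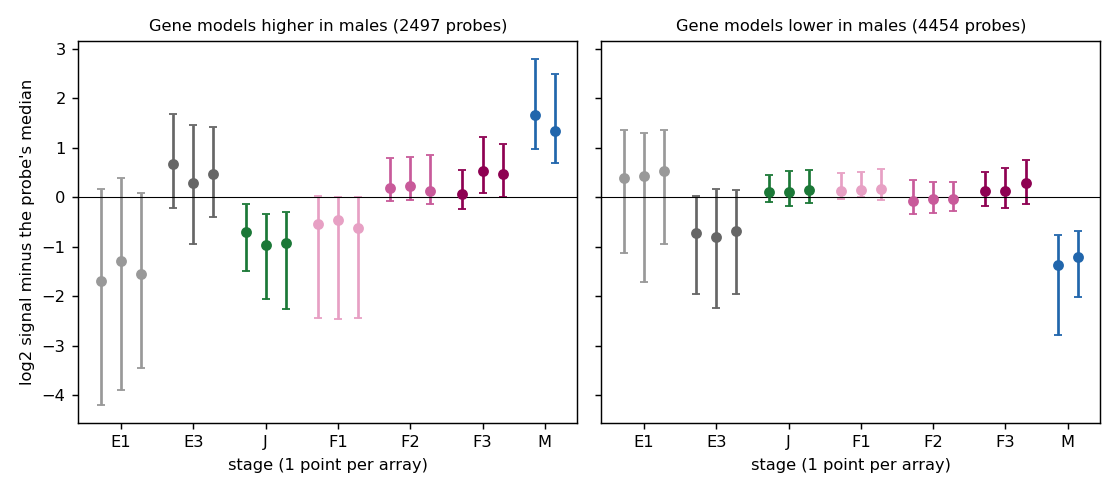
Signal of the gene models higher (left, 2497 probes) and lower (right, 4454 probes) in males on each of the 20 arrays, as log2 signal minus the probe's own median over arrays. Points are medians over probes and bars run between the quartiles. Males and juveniles lie apart by the choice of the gene models, and late embryos lie on the side of males in both panels.

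Ranked by stage mean, males were the highest of the 7 stages for 387 (57%) of the 679 higher gene models and the lowest for 557 (46.6%) of the 1196 lower ones. Over all 16078 gene models with at least 3 tested probes, males were highest in 1480 (9.21%) and lowest in 3462 (21.5%). The shares in the sets are raised by how the sets were chosen. Among the 6 stages other than males, late embryos ranked highest most often in the higher set, for 230 gene models (33.9%), against 3403 (21.2%) of all. They also ranked lowest most often in the lower set, for 705 (58.9%), against 5502 (34.2%) of all. Juveniles are among these 6 stages, and the choice of the sets removes them, which raises the shares of other stages. They were highest in 0.442% of the higher set (10.2% of all) and lowest in 1.09% of the lower set (5.65% of all). Early embryos were highest in 18.9% of the higher set (34.5% of all) and lowest in 16.1% of the lower set (31.2% of all). F2 was the highest of the 6 for 135 gene models of the higher set (19.9%), against 7.95% of all, and F3 for 150 (22.1%), near its share of 20% of all. Differences between males and juveniles in whole animals can come from more cells of a type or from more RNA per cell, and these cannot be told apart here.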

How the data were processed

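The files deposited for the single arrays hold, per spot, a processed intensity on a linear scale, corrected for background by Feature Extraction (version 10.5.1.1 in the file headers). The deposited marks for outlier spots and for signal well above background are other values, as the software gave them. A deposited matrix holds log2 values, quantile normalized and centred on each probe's median, used here as an alternative. Custom probes were grouped by the gene model of the array's annotation.

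Control spots and outlier spots were left out and saturated spots were kept. There were 2 saturated spots on M1 and 0 on the other 4 arrays. Spots of a probe were averaged as log2 intensity, followed by quantile normalization across the 20 arrays (R 4.3.3, limma 3.58.1). Background was the 95th percentile of the random probes on each array. A linear model of all 7 stages (limma, lmFit and eBayes) was fitted, so males with 2 arrays and juveniles with 3 shared the spread of all stages, and males minus juveniles was tested at an adjusted p of 0.05 with at least 1.5-fold. The number of arrays limits the precision. limma replaced the Student test of the study's methods, which was run as an alternative, since 5 arrays leave few degrees of freedom. The procedure was also run on simulated data, in which a probe had the same spread on every array, with no slide effect and no signal floor. That run cannot show how the procedure behaves with an array like M1.

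Where no array of the dimmer stage measured a probe, "at least" folds set the mean of the brighter stage against, on each dim array, the dimmest signal that array could measure (the lowest one well above background) or the probe's own, if higher. Gene models were named by a rule: among those with at least 3 tested probes, all called in 1 direction with both male arrays beyond all juvenile arrays, the largest median difference in each direction, and the largest among those well above background on all 5 arrays. The comparison, the rule and the alternatives were chosen with earlier results of these data known. Alternatives changed the background correction, the normalization, the filter, the treatment of outlier spots, blocks for slide, scan date or replicate number, array weights, the test, its limits and the arrays included. Lists of functional groups were not analysed here, since the files used here pair no names with gene models.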

Additional observations from a re-analysis of the deposited data

How the results depend on the processing

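The number of called probes (19607) and gene models (10318) and the share of calls higher in males (34.9%) stayed within 1.5 times, or 10 percentage points for the share, under the other scalings, the deposited matrix, the looser filters, the slide or scan date as a block, and the fold limits. The exceptions follow. With only probes above background on all 5 arrays, 11919 probes and 6185 gene models were called and 46.3% of the calls were higher in males, and fewer probes were tested there. A fit of the 5 arrays alone called 11797 and 6457 (49.6% higher), and array weights 7476 and 4362. The fit of the 5 arrays kept 67.1% of the higher and 38.4% of the lower probe calls. The methods' t-test called 2146 and 1609 at the unadjusted threshold and 5374 and 3484 after Benjamini-Hochberg adjustment, with 48% higher in both. An adjusted p under 0.01 left 9951 and 5436. At least 2 called probes left 5069 gene models, and all tested probes in 1 direction 2316. Leaving out 1 array gave 10174 to 25885 probes, 5301 to 15187 gene models and 26.9 to 39.7% higher, the lowest counts without M1 and the highest without M2. By the random probes' percentile in place of the software's mark, 998 probes were above background in males alone. Leaving out 1 array gave 227 to 5619 such probes, and 4299 to 48658 for juveniles alone. Quantile normalization was not repeated for these fits. The cause of these changes was not tested.

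With the replicate number as a block, 17393 probes and 9310 gene models were called, and 36.4% of the calls were higher in males. The numbers are not stated to mark a shared culture or day. Deviations from the stage means had a mean correlation of -0.0233 between arrays of the same number (57 pairs) and 0.0147 otherwise. For males and juveniles it was 0.00907 for number 1 and -0.0413 for number 2. Arrays of slide 1 did not all carry the same number, so these values cannot settle whether the numbers pair the arrays.

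Of the named gene models, velb9ptf225k23Loc41t7 and velh8ptr216k23Loc205t1 kept all calls under every alternative that tested them. Of the 4 probes of velh8ptr090k77Loc67t4, 0 were called by the fit of the 5 arrays alone (largest adjusted p 0.0699) and 0 by the methods' t-test, unadjusted or adjusted (0.176). Of the 4 of velh8ptr075k87Loc34t5, that test called 0 unadjusted and 3 adjusted (0.0582), and 2 passed an adjusted p of 0.01. The 2 alternatives added after the data were seen, slide 2 alone and arrays centred on the median tested probe, gave 29257 and 18738 called probes, the first with its spread taken from J1 and J3 alone. M1 measured too few dim probes to set a level below a log2 signal of 8.1.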
